A study of Mus musculus with 9 samples.

Results

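F-box proteins are the interchangeable substrate receptors of SCF ubiquitin ligases, and their transcripts were followed here in mouse muscle after knockdown of another ubiquitin ligase, Ubr4. The 59 genes were taken by symbol from a table of 23231 rows: 32 Fbxo, 18 Fbxl and 9 Fbxw genes. The muscle-wasting gene Fbxo32 and 3 further genes, Fbxo30, Fbxo21 and Fbxo31, were left out by the same rule. RNA came from the tibialis anterior of C57BL/6 mice aged 6 months whose muscle had been electroporated with small interfering RNA (siRNA). Of the 9 libraries, 3 had siRNA construct 7 against Ubr4, 3 had construct 5 against Ubr4 and 3 had a non-targeting control siRNA. Electroporation of siRNA was thus shared by all 3 groups, and no group without it is described. The labels do not say whether the samples came from separate animals, so p-values measure only the spread between samples, which may be technical.

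In an SCF ligase, the cullin Cul1 carries the RING protein Rbx1 at one end and the adaptor Skp1 at the other, and Skp1 holds the F-box protein. The part of the protein outside the F-box picks the substrate: WD40 repeats in Fbxw proteins, leucine-rich repeats in Fbxl proteins, and various other domains in Fbxo proteins. In skeletal muscle the family is best known through Fbxo32 (atrogin-1), which rises in wasting muscle, and Fbxo40, a muscle-restricted receptor reported to target the insulin signalling protein Irs1 in mouse.

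Values are FPKM, a measure of fragments that corrects for the length of a gene and the depth of a library, as the authors deposited them. Changes are differences of mean log2(FPKM + 1), which understate the change of low genes, and come from limma fitted to all 10794 genes with a mean FPKM of at least 1. A gene was called where its Benjamini-Hochberg adjusted p over all those genes was under 0.05. Depth recovered from the table was 29312121 to 45563533 reads, so 3 reads on a gene of 1 kilobase correspond to 0.0658 to 0.102 FPKM. Ubr4 itself stood at 2.25 to 3.07 FPKM with construct 7, at 2.73 to 3.80 FPKM with construct 5 and at 7.82 to 10.3 FPKM in the controls. Its log2 change was -1.47 with construct 7 (limma adjusted p = 0.00882) and -1.20 with construct 5 (limma adjusted p = 0.0168), and in exact two-sided permutation tests of each construct, n = 3 against 3, p was 0.1, the smallest that size allows. Without control replicate 3 the limma adjusted p was 0.0877 for construct 7 and 0.0941 for construct 5, and it was also over 0.05 for both without control replicate 2. The construct 7 call was lost without construct 7 replicate 2 as well (0.0736), and the construct 5 call without construct 5 replicate 1 (0.0956). With no filter on low values both calls were lost too (limma adjusted p = 0.0976 for construct 7 and 0.0523 for construct 5). The muscle fibre markers marked the tissue in every library, with summed levels of 66085 to 82711 FPKM with construct 7, 71725 to 79640 FPKM with construct 5 and 78162 to 82623 FPKM in the controls. Of these 9 markers, 3 with construct 7 and 4 with construct 5 lay below the controls without overlap. This held for 6.26% and 5.19% of all tested genes. With either construct, 0 fibre markers lay above the controls without overlap and 0 were called. Markers of some other cell types differed in level between the groups. The 7 fibroblast markers summed to 289 to 315 FPKM with construct 7, 464 to 731 FPKM with construct 5 and 365 to 428 FPKM in the controls. The 12 macrophage markers summed to 101 to 153, 204 to 370 and 123 to 184 FPKM in the same groups, and the 6 tendon markers to 35.2 to 77.4, 100 to 147 and 45.1 to 66.0 FPKM. The 6 lymphocyte markers were low, at a summed 1.30 to 3.76 FPKM with construct 7, 2.41 to 4.56 FPKM with construct 5 and 1.5 to 1.68 FPKM in the controls; 5 of them lay above the controls without overlap with construct 5, 1 was called higher there, and Cd3e averaged under 0.1 FPKM. The 7 endothelial markers overlapped in all 3 groups, at 80.8 to 93.0 FPKM with construct 7, 77.6 to 104 FPKM with construct 5 and 83.3 to 96.0 FPKM in the controls. Summed adipocyte, Schwann cell, satellite cell, erythroid and neutrophil markers overlapped as well. The neutrophil sum ran from 0.435 to 37.5 FPKM within construct 5. In whole muscle, fewer cells of a type and less RNA per cell cannot be told apart. The comparisons of construct 7 and of construct 5 with the controls share the same 3 control libraries.

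The sequences shown are the 250 bases before the transcription starts of Fbxo17 and Fbxo9, because these are the called F-box genes for which a start was at hand. They are RefSeq sequences on GRCm38.p6, written 5′ to 3′ on the gene's strand, and capitals mark matches to the motifs searched. The Fbxo17 window is at chr7:28716532-28716781 on the plus strand. The window of a second Fbxo17 start, at chr7:28716540-28716789, is not shown. The windows of the Fbxo9 starts are at chr9:78109066-78109315 and chr9:78108657-78108906, both on the minus strand.
Fbxo17: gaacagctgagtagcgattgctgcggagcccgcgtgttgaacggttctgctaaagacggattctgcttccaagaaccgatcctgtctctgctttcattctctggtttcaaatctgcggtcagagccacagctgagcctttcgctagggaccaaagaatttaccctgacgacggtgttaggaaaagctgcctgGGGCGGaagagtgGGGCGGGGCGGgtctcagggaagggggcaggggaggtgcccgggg
Fbxo9, upstream start: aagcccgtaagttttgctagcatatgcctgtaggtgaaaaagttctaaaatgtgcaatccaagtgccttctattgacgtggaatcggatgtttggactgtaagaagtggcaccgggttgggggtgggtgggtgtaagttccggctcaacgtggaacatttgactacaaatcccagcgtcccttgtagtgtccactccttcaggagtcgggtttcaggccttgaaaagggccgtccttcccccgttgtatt
Fbxo9, downstream start: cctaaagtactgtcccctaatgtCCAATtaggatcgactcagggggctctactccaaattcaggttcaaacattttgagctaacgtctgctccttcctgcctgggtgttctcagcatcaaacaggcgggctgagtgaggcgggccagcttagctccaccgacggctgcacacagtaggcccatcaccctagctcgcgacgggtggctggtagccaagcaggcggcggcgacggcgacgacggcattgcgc
Fbxo17 had 3 matches to the GC box GGGCGG, of which a pair overlapped. Fbxo9 had no match at the upstream start and 1 match to CCAAT at the downstream start. Both strands were searched for the GC box, the CCAAT box CCAAT, the TATA box TATAAA, the E-box CACGTG, the FoxO motif GTAAACA and the Nrf2 core motif TGACNNNGC. GGGCGG occurred in 59.4% of the 64 promoters matched to 44 of the 59 F-box genes, against 32.7% of all 32851 promoters. CCAAT occurred in 23.4% of the F-box promoters, against 33.8% of all promoters. The FoxO motif was in 0 of 64 F-box promoters, against 3.17% of all, and the TATA box was in 0, against 12.4% of all. The E-box was in 4.69% of F-box promoters and 6.02% of all, and the Nrf2 core motif in 7.81% and 10.2%. Median GC content was 58.6% in the F-box promoters and 52.4% in all promoters. These matches describe the letters in the window only.

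Of the 59 F-box genes, 34 had a mean FPKM of at least 1 and were tested, and 25 did not. At the edge of that threshold, Fbxl12 averaged 1.29 FPKM and was inside, and Fbxw17 averaged 0.998 FPKM and was outside. Fbxo40 was the most abundant by far, followed by Fbxw5, Fbxo3, Fbxo6, Fbxw11, Fbxo9 and Fbxo22. Another 10 genes averaged 5 to 10 FPKM and 17 averaged 1 to 5 FPKM. Summed over all 59 genes, the F-box level was 284 ± 5.44 FPKM with construct 7, 291 ± 7.35 FPKM with construct 5 and 280 ± 7.85 FPKM in the controls (SD, n = 3 each). In exact two-sided permutation tests with n = 3 in each group, p was 0.4 for construct 7 against control, 0.3 for construct 5 against control and 0.3 for construct 7 against construct 5. With median-ratio scaling the difference from the controls was -0.982 FPKM with construct 7, against 4.33 FPKM in the deposited scaling, and -17.7 FPKM with construct 5, against 11.2 FPKM, so its direction turned with both. Fbxo40 alone made up 24.3% to 28.9% of the sum in a library.

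**Figure D1:**
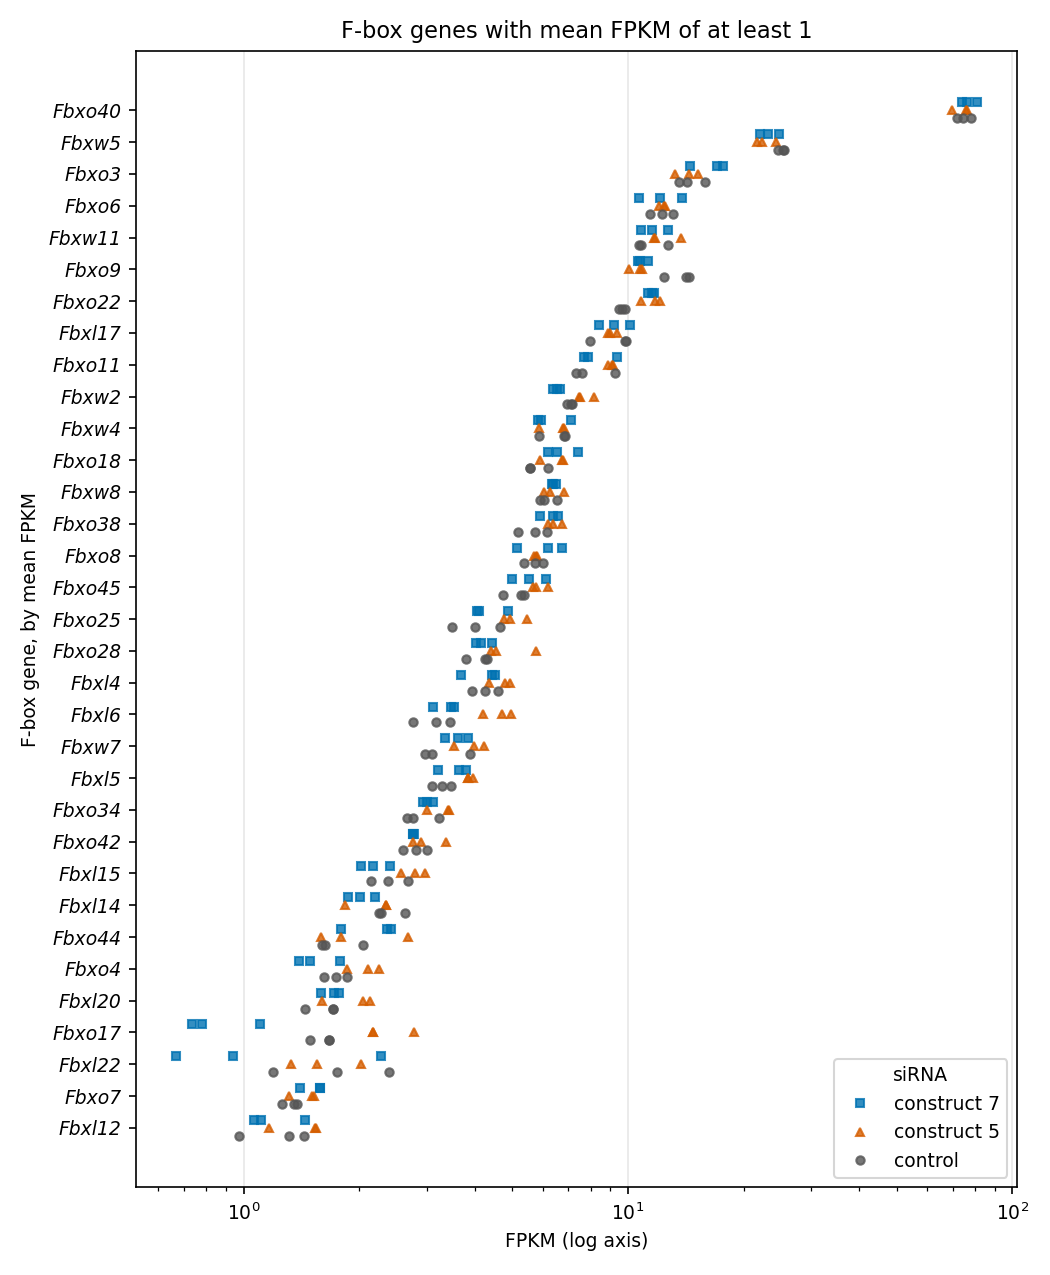
FPKM of 33 of the 34 tested F-box genes on a log axis, ordered by mean, with 3 libraries each for construct 7 (squares), construct 5 (triangles) and control (circles). Fbxo40 stands apart at the top near 75 FPKM, and the 3 groups of Fbxo17 do not overlap, with construct 7 at 0.734 to 1.1 FPKM and construct 5 at 2.17 to 2.78 FPKM.

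Against the controls, few F-box transcripts passed the test with either construct. With construct 7, 0 of 34 F-box genes were called by limma, where 0.0556% of all tested genes were called. At an unadjusted p under 0.05 there were 3 F-box genes, or 8.82%, against 9.47% of all tested genes, and limma-voom on recovered reads called 0. The median log2 change of the F-box genes was 0.04, against 0.02 for all tested genes. All 3 construct 7 libraries lay above the controls for 2 F-box genes, Fbxo22 and Fbxo7, where this held for 10.5% of all tested genes. They lay below the controls for 4 F-box genes, Fbxo9, Fbxo17, Fbxw2 and Fbxl14, where this held for 6.26% of all tested genes.

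With construct 5, 2 of 34 F-box genes were called by limma, Fbxl6 higher and Fbxo9 lower, where 5.27% of all tested genes were called. Unadjusted p was under 0.05 for 7 F-box genes, or 20.6%, against 31.9% of all tested genes. The 569 genes called by limma became 1, and the 2 called F-box genes became 0, when construct 5 replicate 1 was left out. The construct 5 libraries lay above the controls for 11 F-box genes, 32.4% of those tested, where this held for 33% of all tested genes. They lay below the controls for 2 F-box genes, Fbxo9 and Fbxw5, or 5.88%, where this held for 5.19% of all tested genes. These shares are near the background, and so is the median log2 change of 0.12, against 0.13 for all tested genes. Median-ratio scaling took the median of all genes to 0.01 and that of the F-box genes to 0.02, with 18 of 34 positive, against 26 of 34 in the deposited scaling. Fbxo9 alone was then called among the F-box genes.

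With both constructs averaged against the controls, 0 of 34 F-box genes were called by limma, where 0.00926% of all tested genes, Ubr4 alone, were called. Unadjusted p was under 0.05 for 4 F-box genes, or 11.8%, against 19.1% of all tested genes, and limma-voom called 0. Between the constructs, 1 of 34 F-box genes was called, Fbxo17, lower with construct 7 than with construct 5, where 1.22% of all tested genes were called. The construct 7 libraries lay below those of construct 5 for 6 F-box genes, or 17.6%, where this held for 22.4% of all tested genes. They lay above them for 0 F-box genes, where this held for 3.02% of all tested genes. The median log2 difference was -0.08 for the F-box genes and -0.10 for all tested genes.

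**Figure D2:**
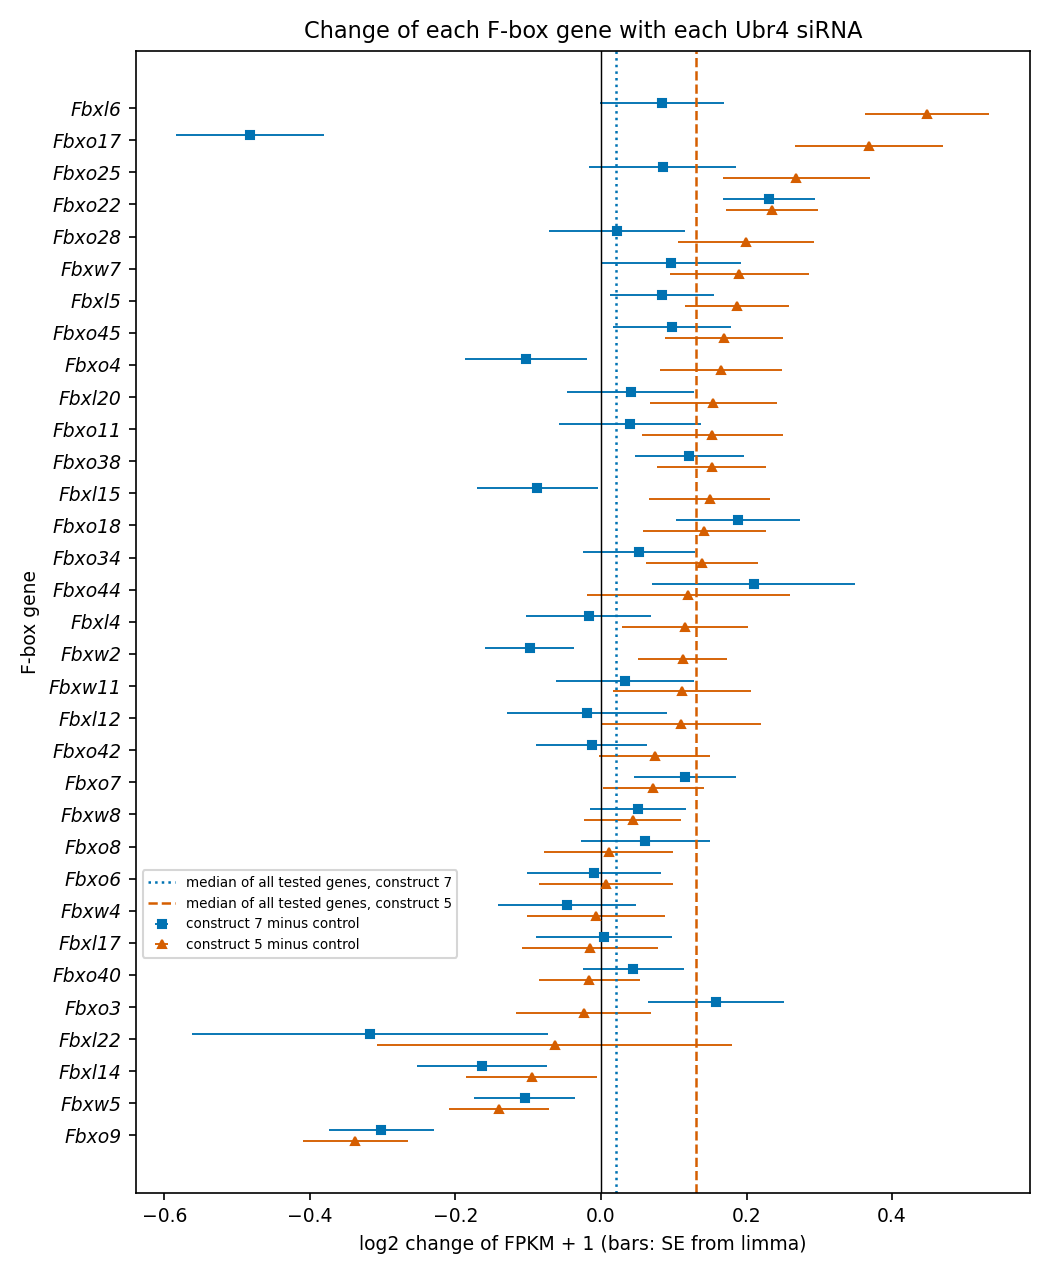
Log2 change of FPKM + 1 of 33 of the 34 tested F-box genes with construct 7 (squares) and construct 5 (triangles) against the same controls, with the limma standard error as bars and the median of all tested genes as vertical lines at 0.02 and 0.13. Fbxo17 lies at -0.48 with construct 7 and at 0.37 with construct 5, and Fbxo9 lies at the bottom with both.

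Fbxo17 belongs to the glycoprotein-binding receptors, which carry an FBA domain and for some members bind N-glycans of misfolded glycoproteins. Fbxo17 (ENSMUSG00000030598) stood at 0.780, 1.1 and 0.734 FPKM with construct 7, at 2.78, 2.17 and 2.18 FPKM with construct 5 and at 1.67, 1.49 and 1.67 FPKM in the controls. The 3 groups did not overlap, and the controls lay between the constructs. No share of all tested genes was computed for groups that separate in this order. The FPKM values of Fbxo17 correspond to 62, 106 and 79 reads with construct 7, 230, 247 and 165 reads with construct 5, and 122, 120 and 130 reads in the controls. The highest construct 7 count had a 95% Poisson interval of 86.8 to 128 reads and the lowest construct 5 count one of 141 to 192 reads. The control intervals, 101 to 146, 99.5 to 143 and 109 to 154 reads, overlapped both. Such intervals cover counting error only. The counts are not corrected for depth, which was 38439931 reads in construct 7 replicate 2 and 30379872 in construct 5 replicate 3. The log2 difference of construct 7 minus construct 5 was -0.85 (SE 0.101, limma adjusted p = 0.0150), a ratio of mean FPKM of 0.367. Against the controls the change was -0.48 with construct 7 (limma adjusted p = 0.259) and 0.37 with construct 5 (limma adjusted p = 0.0609), and neither was called. With median-ratio scaling these were -0.50 and 0.27, and the difference between the constructs was -0.77 (limma adjusted p = 0.0159). Of 19 alternative settings, 16 kept the call between constructs; it was lost when construct 7 replicate 1 was left out (limma adjusted p = 0.0775), when construct 7 replicate 3 was (0.0567), and with no filter on low values (0.0535). The summed fibroblast markers had the same order of groups as Fbxo17, lowest with construct 7 and highest with construct 5, and their part in the result was not tested.

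Fbxo27, another FBA-domain receptor, known in human cells for marking damaged lysosomes, is the neighbour of Fbxo17 on chromosome 7. It was under the threshold, at 0.123, 0.178 and 0.0986 FPKM with construct 7, 0.336, 0.215 and 0.161 FPKM with construct 5 and 0.223, 0.283 and 0.199 FPKM in the controls. All 3 construct 7 libraries were below the controls, whereas the construct 5 libraries overlapped both other groups. The counts behind Fbxo27 were low, 12 to 21 reads with construct 7, 15 to 34 with construct 5 and 19 to 28 in the controls. The remaining FBA-domain genes, Fbxo6, Fbxo44 and Fbxo2, lie side by side on chromosome 4. Fbxo6, which binds high-mannose N-glycans in the disposal of misfolded glycoproteins, was at 12.1, 10.7 and 13.9 FPKM with construct 7, 12, 12.4 and 12.5 FPKM with construct 5 and 12.3, 13.1 and 11.4 FPKM in the controls. Its log2 change was -0.01 with construct 7 and 0.01 with construct 5, with an SE of 0.092 each, and all 3 groups overlapped. Fbxo44 was at 1.80 to 2.42 FPKM with construct 7, 1.59 to 2.69 FPKM with construct 5 and 1.60 to 2.04 FPKM in the controls, and its groups also overlapped. Fbxo2, the neuronal glycan-binding receptor, averaged 0.117 FPKM with construct 7, 0.124 FPKM with construct 5 and 0.0765 FPKM in the controls. Within these receptors, neighbours thus held very different levels, with Fbxo6 the highest and Fbxo2 the lowest.

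**Figure D3:**
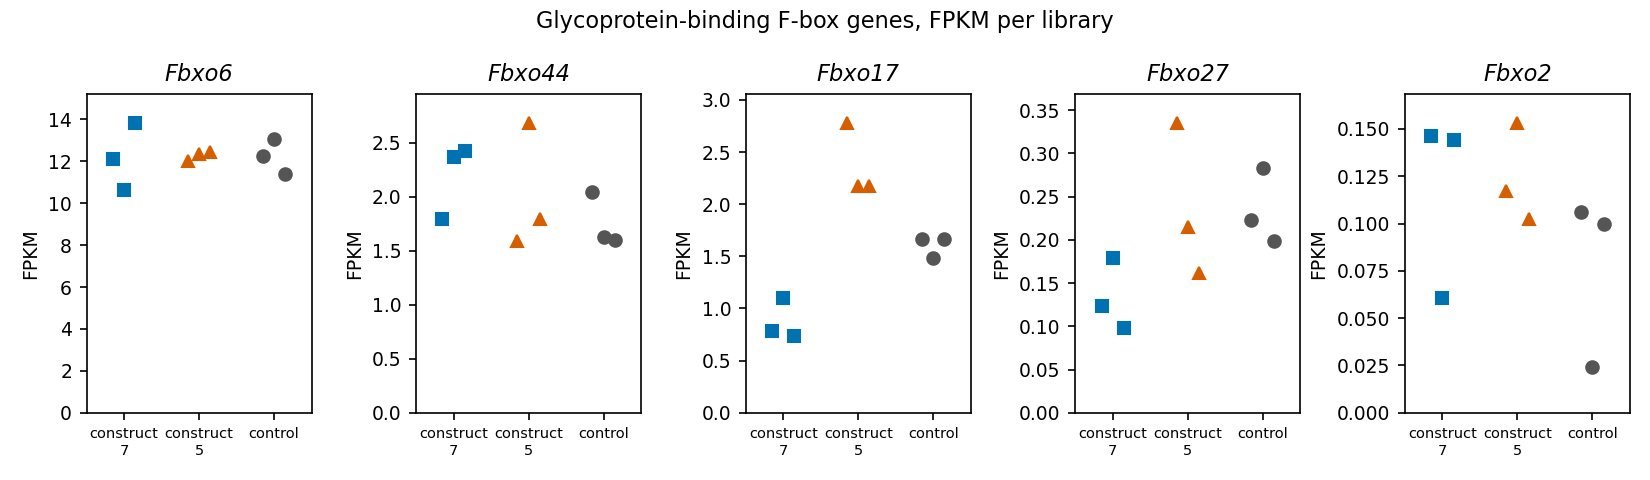
FPKM per library of the 5 FBA-domain receptors, each on its own linear axis from 0, with construct 7 left, construct 5 in the middle and control right. Fbxo17 separates into 3 groups, and the groups overlap for Fbxo6, Fbxo44 and Fbxo2. For Fbxo27, which had low counts and was not tested, the construct 7 points lie below those of the controls.

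Fbxo9 (ENSMUSG00000001366), a receptor reported in human cells to target regulators of the mTOR kinase, was lower than in the controls with both constructs. It stood at 11.2, 10.6 and 10.7 FPKM with construct 7, at 10.1, 10.8 and 10.9 FPKM with construct 5 and at 14.2, 12.4 and 14.4 FPKM in the controls. All 6 siRNA libraries against Ubr4 were below all 3 controls, and the constructs overlapped each other. Such a position below the controls held for 1 of 34 tested F-box genes, or 2.94%, against 1.45% of all tested genes. The log2 change was -0.30 with construct 7 (SE 0.0723, limma adjusted p = 0.278), which was not called, and -0.34 with construct 5 (SE 0.0723, limma adjusted p = 0.0461), which was. For both constructs together it was -0.32 (limma adjusted p = 0.0821). The call with construct 5 was close to the threshold and was kept in 10 of 20 alternatives, with adjusted p from 0.0398 to 0.153. It was lost without any 1 control library (0.101 to 0.132), without any 1 construct 5 library (0.0503 to 0.153) and without construct 7 replicate 3 (0.0707). Median-ratio scaling gave a change of -0.47 (limma adjusted p = 0.0398), in the same direction.

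Fbxl6 (ENSMUSG00000022559), a leucine-rich repeat receptor, was higher with construct 5. It stood at 3.52, 3.46 and 3.12 FPKM with construct 7, at 4.96, 4.20 and 4.71 FPKM with construct 5 and at 3.17, 2.77 and 3.45 FPKM in the controls. The construct 5 libraries were above the other 6, and construct 7 overlapped the controls. The log2 change was 0.08 with construct 7 (limma adjusted p = 0.824) and 0.45 with construct 5 (SE 0.0856, limma adjusted p = 0.0406). Construct 7 minus construct 5 was -0.36 (limma adjusted p = 0.0666), which was not called. The call was kept in 8 of 19 alternatives (limma adjusted p 0.0359 to 0.139) and was lost with median-ratio scaling, where the change was 0.33 (limma adjusted p = 0.0779). Leaving out any 1 control library (0.0941 to 0.121), construct 5 replicate 1 (0.139) or 2 (0.0682), or construct 7 replicate 3 (0.0610) also ended it. The fibroblast, macrophage and tendon markers were highest with construct 5 as well, and their part in the change of Fbxl6 was not tested.

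**Figure D4:**
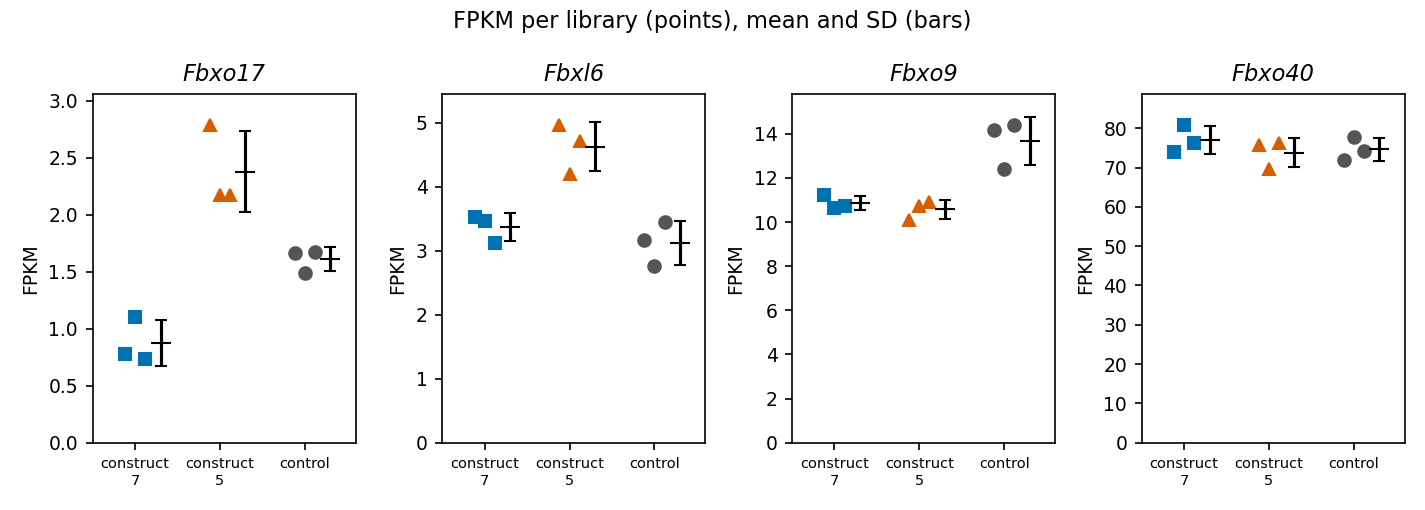
FPKM per library of Fbxo17, Fbxl6 and Fbxo9, the F-box genes called in any comparison, and of Fbxo40, the most abundant one, with construct 7 left, construct 5 in the middle and control right, and mean and SD as bars (n = 3). Fbxo9 is lower with both constructs than in the controls, and Fbxo40 overlaps in all 3 groups.

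The receptors with known roles in striated muscle did not pass the test in any comparison, but they too are few beside the shares of all genes called. Fbxo40 was at 73.9, 80.8 and 76.3 FPKM with construct 7, 75.7, 69.5 and 76.2 FPKM with construct 5 and 71.8, 77.8 and 74.2 FPKM in the controls. Its groups overlapped, and the log2 change was 0.04 with construct 7 (SE 0.0694, limma adjusted p = 0.903) and -0.02 with construct 5 (SE 0.0694, limma adjusted p = 0.886). Fbxl22, a sarcomeric receptor that promotes turnover of alpha-actinin and filamin C in heart, was at 0.941, 2.27 and 0.667 FPKM with construct 7, 2.02, 1.33 and 1.56 FPKM with construct 5 and 1.75, 1.2 and 2.40 FPKM in the controls. It was the most variable tested F-box gene within a group with construct 7 and in the controls, with coefficients of variation of 66.4% and 33.8%, so a change below that spread was not detectable. Fbxl22 shares exon sequence on the opposite strand with Herc1, and its value is uncertain because the strand of the libraries is not given. Fbxo25, a receptor reported to target cardiac transcription factors in mouse, was at 4.06 to 4.88 FPKM with construct 7, 4.77 to 5.47 FPKM with construct 5 and 3.48 to 4.66 FPKM in the controls. Its construct 5 libraries were all above the controls, at a log2 change of 0.27 (limma adjusted p = 0.115), or 0.15 with median-ratio scaling.

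Among the WD40 receptors, 0 of 6 tested genes were called by limma in any comparison, a number too small to be read against the shares of all genes called. Fbxw5, which acts in turnover of the growth regulator Tsc2, was at 24.7, 22.0 and 23.2 FPKM with construct 7, 24.2, 22.3 and 21.7 FPKM with construct 5 and 25.3, 25.5 and 24.6 FPKM in the controls. Construct 5 did not overlap the controls, at a log2 change of -0.14 (limma adjusted p = 0.191), or -0.28 with median-ratio scaling. Fbxw2 was at 6.52, 6.67 and 6.40 FPKM with construct 7, 8.18, 7.49 and 7.47 FPKM with construct 5 and 7.11, 7.14 and 6.92 FPKM in the controls. Like Fbxo17 its 3 groups did not overlap and the controls lay between the constructs, but the difference of construct 7 minus construct 5, -0.21 (limma adjusted p = 0.103), was not called, and with median-ratio scaling it was -0.10. How many of all tested genes separate in this order was not computed. Fbxw7, the receptor for cyclin E, Myc and Notch, averaged 3.59 ± 0.247 FPKM with construct 7, 3.90 ± 0.342 FPKM with construct 5 and 3.31 ± 0.50 FPKM in the controls (SD, n = 3 each). Fbxw11, which recognises phosphorylated beta-catenin and IkappaB, averaged 11.7 ± 0.975, 12.4 ± 1.17 and 11.4 ± 1.13 FPKM in the same groups. Fbxw8, the receptor that works with the cullin Cul7, averaged 6.40 ± 0.0941, 6.37 ± 0.390 and 6.15 ± 0.329 FPKM. For these last 3 genes the log2 changes were 0.03 to 0.10 with construct 7 and 0.04 to 0.19 with construct 5, and every adjusted p was over 0.05 (limma).

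The leucine-rich repeat receptors of iron and mitochondria were not called in any comparison, but they are too few to be read against the shares of all genes called. Fbxl5, the iron-sensing receptor for the iron regulatory protein Ireb2, was at 3.2 to 3.80 FPKM with construct 7, 3.83 to 3.95 FPKM with construct 5 and 3.09 to 3.47 FPKM in the controls, and its log2 change with construct 5 was 0.19 (limma adjusted p = 0.117), or 0.07 with median-ratio scaling. Fbxl4, a mitochondrial protein whose loss depletes mitochondrial DNA in humans, overlapped in all 3 groups, at 3.67 to 4.51, 4.35 to 4.94 and 3.94 to 4.58 FPKM in the same order.

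Of the other leucine-rich repeat genes, Fbxl14, a receptor for the transcription factor Snail, was lower than in the controls in all 3 construct 7 libraries, at 2.20, 1.87 and 2.00 FPKM. It was at 2.35, 2.35 and 1.83 FPKM with construct 5 and at 2.28, 2.25 and 2.63 FPKM in the controls. The gap was narrow, and the log2 change of -0.16 with construct 7 was not called (limma adjusted p = 0.618). Fbxl15, which targets the ligase Smurf1, was at 2.03 to 2.40 FPKM with construct 7, 2.56 to 2.96 FPKM with construct 5 and 2.14 to 2.69 FPKM in the controls. Fbxl17, which acts in quality control of BTB protein dimers, averaged 9.25 ± 0.872, 9.09 ± 0.266 and 9.23 ± 1.08 FPKM in the same groups (SD, n = 3 each). Fbxl20, a receptor described at synapses, averaged 1.70 ± 0.0920, 1.92 ± 0.283 and 1.62 ± 0.149 FPKM. Groups overlapped for Fbxl17 and Fbxl20 in every comparison.

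Fbxo22, a receptor for histone demethylases of the KDM4 family, was higher with both constructs by level but was not called. It stood at 11.7, 11.6 and 11.3 FPKM with construct 7, 11.8, 10.8 and 12.1 FPKM with construct 5 and 9.48, 9.66 and 9.83 FPKM in the controls. All 6 libraries with siRNA against Ubr4 were above all 3 controls. This held for 1 of 34 tested F-box genes, or 2.94%, against 8.04% of all tested genes. The log2 change was 0.23 with construct 7 (limma adjusted p = 0.311) and 0.24 with construct 5 (limma adjusted p = 0.0585); with median-ratio scaling the change with construct 5 was 0.10. Fbxo22 shares exon sequence on the opposite strand with Nrg4, which leaves its value uncertain. Apart from Fbxo9 and Fbxo22, the one other of the 59 genes on the same side of the controls with both constructs was Fbxl2, which was under the threshold at 0.155 to 0.258 FPKM with construct 7, 0.247 to 0.341 FPKM with construct 5 and 0.123 to 0.132 FPKM in the controls.

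The remaining Fbxo genes named by role were within the spread of the groups or not called. Fbxo3, a receptor that targets Fbxl2, was at 17.7, 14.5 and 17 FPKM with construct 7, 13.3, 15.2 and 14.4 FPKM with construct 5 and 13.6, 14.2 and 15.9 FPKM in the controls, with all groups overlapping. Fbxo11, a receptor for the repressor Bcl6, averaged 8.31 ± 0.934 FPKM with construct 7, 9.04 ± 0.128 FPKM with construct 5 and 8.06 ± 1.05 FPKM in the controls (SD, n = 3 each). Fbxo4, reported to target cyclin D1, was at 1.40 to 1.78 FPKM with construct 7, 1.86 to 2.25 FPKM with construct 5 and 1.62 to 1.86 FPKM in the controls. Its difference of construct 7 minus construct 5 was -0.27 (limma adjusted p = 0.119). Fbxo7, a mitophagy gene mutated in a form of parkinsonism, was at 1.40 to 1.58 FPKM with construct 7, 1.32 to 1.52 FPKM with construct 5 and 1.26 to 1.37 FPKM in the controls. Fbxo28, which ubiquitinates Myc in human cells, was at 4.02 to 4.42, 4.40 to 5.76 and 3.80 to 4.29 FPKM in the same groups. Fbxo38, known for ubiquitinating PD-1 in T cells, was at 5.89 to 6.57, 6.20 to 6.73 and 5.19 to 6.16 FPKM. The log2 change of Fbxo28 and Fbxo38 with construct 5 was 0.20 and 0.15 (limma adjusted p = 0.176 and 0.192), and 0.08 and 0.03 with median-ratio scaling. Exons of Fbxo3, Fbxo7, Fbxo11, Fbxl5, Fbxl15 and Fbxw8 overlap other genes on the opposite strand, so their values are uncertain too. Same-strand exon overlaps, of Fbxl20 with Gm11632 and of Ubr4 with Emc1, leave these values uncertain whatever the strand setting.

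The tested F-box genes not named above were Fbxw4, Fbxo8, Fbxo18, Fbxo34, Fbxo42, Fbxo45 and Fbxl12, with log2 changes from -0.05 to 0.19 with construct 7 and from -0.01 to 0.17 with construct 5. Over all 34 genes the change was within 0.25 in either direction for 31 with construct 7 and 30 with construct 5. The median coefficient of variation within a group was 8.59% with construct 7, 7.18% with construct 5 and 8.03% in the controls.

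The 25 F-box genes under 1 FPKM comprised 10 between 0.5 and 1 FPKM, 6 between 0.1 and 0.5 FPKM and 9 under 0.1 FPKM. The highest were Fbxw17, Fbxo10 and Fbxl18, at means of 0.998, 0.907 and 0.897 FPKM. They included all 7 genes listed as germline, embryonic or neuronal, among them Fbxo15, an embryonic stem cell marker, which had a value above 0 in 1 library, construct 5 replicate 1, at 0.0207 FPKM. In all, 6 of the 25 were listed at 0 in at least 1 library. Fbxl16, a leucine-rich repeat protein, was at 0.505, 0.524 and 0.534 FPKM with construct 7, 0.695, 0.820 and 0.662 FPKM with construct 5 and 0.785, 0.765 and 0.812 FPKM in the controls. Construct 7 was below both other groups without overlap. Fbxw9 was at 0.557, 1.06 and 0.686 FPKM with construct 7, 0.947, 0.908 and 0.876 FPKM with construct 5 and 0.595, 0.631 and 0.578 FPKM in the controls, where construct 5 was above the controls. Fbxo5, the inhibitor of the anaphase-promoting complex also called Emi1, was at 0.266 to 0.520 FPKM with construct 7, 0.515 to 0.649 FPKM with construct 5 and 0.255 to 0.479 FPKM in the controls. No test was made on these genes, and no share of all genes under 1 FPKM was computed for groups that did not overlap.

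The parts of the ligase that the receptors share were looked at in a list of 28 SCF core and neddylation genes, of which 26 were measured and tested. With construct 7, 0 of 26 were called by limma, with 7 at an unadjusted p under 0.05, where this held for 9.47% of all tested genes. With construct 5, 3 of 26 were called, 2 higher and 1 lower, where 5.27% of all tested genes were called. Unadjusted p with construct 5 was under 0.05 for 8 of 26, where this held for 31.9% of all tested genes. The median change with construct 5 was 0.12, against 0.13 for all tested genes, and -0.02 with median-ratio scaling. For both constructs together 0 were called by limma, with 11 of 26 at an unadjusted p under 0.05, against 19.1% of all tested genes. Between the constructs 1 of 26 was called, where 1.22% of all tested genes were called. Unadjusted p between the constructs was under 0.05 for 7 of 26, against 23.1% of all tested genes. Cul1, the cullin scaffold of SCF ligases, was at 21.6, 21.8 and 20.3 FPKM with construct 7, 16.6, 16.6 and 16.1 FPKM with construct 5 and 20.2, 20.5 and 21.7 FPKM in the controls. All construct 5 libraries were below the other 6. The log2 change was 0.03 with construct 7 (limma adjusted p = 0.924) and -0.32 with construct 5 (limma adjusted p = 0.0406), and construct 7 minus construct 5 was 0.35 (limma adjusted p = 0.0391). Both calls also held with median-ratio scaling, at -0.46 for construct 5 against control (limma adjusted p = 0.0240) and 0.47 between constructs (limma adjusted p = 0.0161). They were close to the threshold: leaving out 1 library in turn kept the first in 2 of 9 cases (0.0411 to 0.138, lost without any control or any construct 5 library or construct 7 replicate 3) and the second in 1 of 9 (0.0438 to 0.125, kept without construct 7 replicate 2).

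The adaptor Skp1a was at 81.2, 83.4 and 81.5 FPKM with construct 7, 103, 83.0 and 88.1 FPKM with construct 5 and 70.1, 73.0 and 69.7 FPKM in the controls. Both constructs were above the controls without overlap. Its log2 change was 0.21 with construct 7 (limma adjusted p = 0.480) and 0.36 with construct 5 (limma adjusted p = 0.0492), a change not called with median-ratio scaling (0.21, limma adjusted p = 0.152). The ubiquitin-conjugating enzyme Ube2d2, the other higher gene, changed by 0.21 with construct 7 (limma adjusted p = 0.398) and 0.29 with construct 5 (limma adjusted p = 0.0492), and was not called with median-ratio scaling (limma adjusted p = 0.195). Neither call was kept when any 1 of the 9 libraries was left out (limma adjusted p 0.0509 to 0.149 for Skp1a and 0.0523 to 0.154 for Ube2d2). Skp1a and Ube2d2 have near-identical copies in the mouse genome, so their values are uncertain. Rbx1 averaged 42.3 ± 2.11 FPKM with construct 7, 41.6 ± 2.85 FPKM with construct 5 and 40.5 ± 2.24 FPKM in the controls (SD, n = 3 each). The most abundant gene of the list was Cdc34, an E2 enzyme of SCF ligases, at 155 ± 5.79, 150 ± 9.81 and 160 ± 2.78 FPKM in the same groups.

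The COP9 signalosome removes Nedd8 from cullins and so allows F-box receptors to be exchanged. Of its 9 tested genes, 0 were called by limma in any comparison in the deposited scaling. With median-ratio scaling 1 was called between the constructs, where 79 of all 10794 tested genes were called. An unadjusted p under 0.05 was found for 1 gene with construct 7, 1 with construct 5 and 2 between the constructs, where this held for 9.47%, 31.9% and 23.1% of all tested genes. The median change with construct 5 was 0.01, against 0.13 for all tested genes, and -0.14 with median-ratio scaling. Its most abundant gene, Cops8, was at 41.5 ± 0.444 FPKM with construct 7, 46.0 ± 1.82 FPKM with construct 5 and 45.7 ± 2.27 FPKM in the controls (SD, n = 3 each). Of 7 F-box genes that carry other symbols, Btrc and Kdm2a were tested and neither was called. Btrc, the close relative of Fbxw11, was at 4.24 to 4.48 FPKM with construct 7, 4.04 to 4.70 FPKM with construct 5 and 3.64 to 3.68 FPKM in the controls.

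Transcripts of 14 textbook substrates of these receptors were also listed, of which 12 were tested. Per2, a clock gene whose protein is degraded through Btrc and Fbxw11, was the 1 gene of 12 called, with construct 5, where 5.27% of all tested genes were called. It was at 1.71, 1.68 and 1.49 FPKM with construct 7, 1.95, 2.04 and 1.61 FPKM with construct 5 and 1.09, 0.895 and 1.05 FPKM in the controls. Both constructs were above the controls, at a log2 change of 0.39 with construct 7 (limma adjusted p = 0.259) and 0.51 with construct 5 (limma adjusted p = 0.0406). With median-ratio scaling the construct 5 change was 0.42 (limma adjusted p = 0.0448). Leaving out 1 library in turn kept the call in 3 of 9 cases (0.0337 to 0.138); it was lost without any control library, construct 5 replicate 1 or 2, or construct 7 replicate 3. The most abundant substrate transcript, Ctnnb1, averaged 41.7 ± 2.38 FPKM with construct 7, 43.7 ± 1.80 FPKM with construct 5 and 39.6 ± 0.927 FPKM in the controls (SD, n = 3 each) and was not called. Receptors act on proteins, which were not measured here.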

How the data were processed

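RNA of 9 muscle libraries was sequenced. The authors deposited 1 table of FPKM values per gene; the submitters' processing notes name BWA, STAR, HTSeq and mm9, and their versions and roles are not given in the sources used here. Library strand is not given either. Depth was recovered from the steps of low FPKM values and from exon lengths in GENCODE M21, found for 21323 identifiers, and 72.8% of 51726 values under 50 reads were whole within 0.1 reads. Recovered reads served for Poisson intervals and limma-voom only. The median depth was 32317622 reads.

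Genes with a mean FPKM of at least 1 were tested on log2(FPKM + 1) with limma (version 3.58.1, run in R 4.3.3, with lmFit, contrasts.fit and a trended eBayes) over all 9 libraries, as construct 7 against control, construct 5 against control, their mean against control, and construct 7 against construct 5. Genes whose p-value, adjusted by Benjamini and Hochberg's method, was under 0.05 were called. Single values were tested by exact two-sided permutation. Python 3.11.15 with pandas 2.3.3, numpy 2.4.6, scipy 1.17.1 and matplotlib 3.10.9 did the rest. In simulated data for construct 5 against control, 200 of 10794 genes were changed. The test found 44% of those changed by 0.5 and 89% of those changed by 1 (log2, either direction). Of its 140 calls in these data, 7 were false. Whether these shares hold for the muscle libraries was not tested.

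The members and the lists were chosen with earlier results of these data known. Named F-box genes were those called in any comparison, the 8 most abundant, per comparison the 4 largest changes in each direction among genes whose groups did not overlap, and a list of genes with textbook roles. Genes under 1 FPKM named for groups that did not overlap were chosen after their values were seen. Neighbouring and overlapping genes were taken from GENCODE M21, which is on another build than the table, so no coordinates are given beyond the promoter windows. Alternatives were median-ratio scaling, quantile normalization, a filter at 5 FPKM, no filter, a pseudocount of 0.1 or 0.5, the libraries of the comparison alone, a replicate block, robust spread, library weights, each library left out, and limma-voom, added after the data were seen. Values of 1 tested F-box gene are not reported here; it is counted in every total. The labels give no batch. Sequence reads and siRNA sequences were not used here.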

Additional observations from a re-analysis of the deposited data

Results flagged for a closer look

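Fbxo17 differed between the constructs under the same comparison with control. Construct 7 minus construct 5 was -0.85 on the log2(FPKM + 1) scale (limma adjusted p = 0.0150), with all 3 construct 7 libraries below the controls and all 3 construct 5 libraries above them. The mean was 0.873 FPKM with construct 7, 2.38 FPKM with construct 5 and 1.61 FPKM in the controls. No share of all tested genes was computed for groups that separate in this order. The summed fibroblast markers were ordered in the same way, and their part in the difference was not tested.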

How the results depend on the processing

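For construct 7 against control the 6 genes called became 0 with no filter and 2 with the libraries of the comparison alone, and 0 to 5 without 1 library. For construct 5 the 569 genes became 316 with a pseudocount of 0.1, 5 with no filter, 204 with a filter at 5 FPKM, 78 with median-ratio scaling, 86 with quantile normalization, 246 with the libraries of the comparison alone and 11 with a replicate block. Leaving out 1 library gave 1 to 581: 1 for construct 5 replicate 1, 41 for construct 5 replicate 2, 6 for construct 7 replicate 3, 356 for construct 7 replicate 1, and 4, 4 and 2 for control replicates 1, 2 and 3. The 2 F-box calls with construct 5 became 0 with no filter, the libraries of the comparison alone or a replicate block, 1 with a filter at 5 FPKM, median-ratio scaling or quantile normalization, and 0 to 2 without 1 library. For both constructs the 1 gene became 0 with no filter, 2 with a filter at 5 FPKM or limma-voom, 4 with a replicate block, 103 with library weights (1 F-box gene, Fbxo9) and 0 to 7 without 1 library. Between constructs the 132 genes became 10 with no filter, 48 with a filter at 5 FPKM, 79 with median-ratio scaling, 58 with quantile normalization, 23 with the libraries of the comparison alone, 217 with a replicate block, 201 with library weights and 3 to 387 without 1 library (construct 7 replicates 1 and 2). The 1 F-box call, Fbxo17, became 0 with no filter (limma adjusted p = 0.0535) or a filter at 5 FPKM, under which it was not testable, and 0 to 1 without 1 library.

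The F-box median change was -0.002 to 0.058 with construct 7 and 0.090 to 0.160 with construct 5 without 1 library. With construct 5 it was 0.044 with a filter at 5 FPKM, 0.018 with median-ratio scaling and -0.028 with quantile normalization. For both constructs it was -0.011 with either scaling and 0.035 to 0.097 without 1 library. Between constructs it was -0.00408 with a filter at 5 FPKM, 0.00928 with median-ratio scaling, 0.053 with quantile normalization and -0.119 to -0.034 without 1 library. The summed F-box difference from control was 0.684 to 8.48 FPKM with construct 7 (-0.982 after median-ratio scaling) and 7.04 to 15.4 FPKM with construct 5 without 1 library, and -17.7 FPKM with construct 5 after median-ratio scaling.

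No pairing of the libraries by replicate number was evident: correlations of deviations were -0.364 to 0.313, and 2 of 9 libraries correlated best with their own number. With 3 libraries a group these values cannot exclude a pairing. With the replicate block Fbxo17 between constructs had a limma adjusted p of 0.0176. Over the named genes, 1943 recomputed values kept direction and side of the threshold, 34 were no longer called, 1 became called and 103 that were never called changed sign. The cause of these changes was not tested. With 3 libraries a group, changes smaller than the spread were not detectable.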
